A study of Mus musculus with 4 samples.

Results

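The comparison was that of young hearts without and with PIMT, at 2 months of age. One RNA-seq library came from the pooled hearts of 5 csPIMT-/- mice and the other from the pooled hearts of 5 PIMT fl/fl mice, which were the controls. The mice were of the strain C57BL6/J, and the labels give each pool as male and female. In csPIMT-/- mice a Cre recombinase driven by the α-MyHC promoter removed exons 3 and 4 of the PIMT gene in cardiomyocytes. Both genotypes carried the floxed alleles, and the controls are described as littermates without the deletion. No library of mice with the Cre transgene alone was analysed here. A pair of libraries of the same genotypes at 6 months of age, also of 5 pooled hearts each, is set beside the young pair. All 23337 genes of the files were considered, and the 15152 with at least 10 recovered reads in 1 of the 2 young libraries were compared. Of the others, 5378 had 0 reads in both libraries and 2807 had 1 to 9. At the limit, 115 genes had exactly 10 reads in the higher library and were compared, and 118 had exactly 9 and were left out.

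PIMT, the product of *Tgs1*, is the methyltransferase that turns the cap of small nuclear and small nucleolar RNAs into a trimethylguanosine cap. It also binds the coactivator NCOA6 and so belongs to the machinery that nuclear receptors use to switch on genes. Cardiomyocytes fill most of the volume of the heart but are outnumbered by endothelial cells, fibroblasts and immune cells, in which α-MyHC-Cre is not active. In RNA of whole hearts, fewer cells of a type and less RNA per cell cannot be told apart.

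*Tgs1* lies on chromosome 4 from 3574875 to 3616619 (GRCm38, plus strand) and its longest transcript has 13 exons and 4327 bases. Exon 3 (3585031 to 3585188) and exon 4 (3585452 to 3586265) together hold 972 bases, or 22.5% of that transcript, so most of the transcript can still give reads after the deletion. The primers the study used for PIMT mRNA are shown because they are placed before the deleted part, at chr4:3575026-3575046 in exon 1 and chr4:3583455-3583477 in exon 2 (the reverse primer is written as synthesised, on the minus strand).
PIMT forward: atgtgttgcgagaagtggaac
PIMT reverse: cactgcttttgacatagtagcct
The control library held 670 reads of *Tgs1* and the csPIMT-/- library 130. The ratio of csPIMT-/- over control was 0.271 (95% interval 0.223 to 0.327). At 6 months the reads were 928 and 156 and the ratio 0.194. The csPIMT-/- library thus had the lower level at each age, on a count over the whole gene. After subtraction of the trend with GC content described below, the young ratio was 0.602, which is within 2-fold.

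Each ratio sets the csPIMT-/- reads over the control reads after median-of-ratios scaling, which made 1 csPIMT-/- read worth 1.40 control reads. The 95% interval is the exact Clopper-Pearson interval of the 2 read counts and covers counting error only. With 1 pool on each side there is no spread between mice or pools, so no p-value is given and no difference could be set against replicate error. A gene is called lower or higher where its ratio was below 0.5 or above 2. The control library held 39854713 recovered reads and the csPIMT-/- library 29823073.

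The young libraries stood apart in their tissue and sex markers, and these values come before the functions. The atrial light chain *Myl7* had 1208 reads in the young control and 34802 in the young csPIMT-/- library, against 19670 and 7770 at 6 months. The young ratio of *Myl7* was 40.2 (38.0 to 42.6) and that at 6 months 0.455. The young control was therefore the low library and the young csPIMT-/- the high one, with both older libraries between them. The same order held for *Myl4*, the other atrial light chain, with 1594 and 55844 reads in the young pair and 26154 and 17572 in the older one. *Sln*, the atrial inhibitor of the calcium pump, had 150 and 10243 reads when young and 4544 and 1619 when old. *Mybphl*, an atrial myosin-binding protein, had 110 and 6498 reads when young and 2648 and 1048 when old. The labels do not give how much atrium each pool held, and its part in these values was not tested.

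*Bmp10*, a growth factor of the right atrium, had 6 reads in the young control and 6946 in the young csPIMT-/- library, a ratio of 1617 (742 to 4408). The older libraries had 7159 and 1037 reads. Of 11 atrial markers, 8 were over 2-fold higher in the young csPIMT-/- library and 0 lower, beside 16.4% of all genes compared that were higher. The exceptions were *Pam*, *Kcnj3* and *Kcnj5*, with ratios of 1.87, 1.46 and 0.733. The summed atrial reads were 97427 and 341829 at 2 months and 224945 and 400562 at 6 months, and none of the 11 markers was at 0 in any library. Ventricular light chains moved little, with ratios of 1.36 (1.35 to 1.37) for *Myl2* and 1.40 (1.39 to 1.41) for *Myl3*. Of 6 ventricular markers 1 was lower, *Lrrc39* at 0.138, and 1 higher, *Myh7* at 4.10. *Hey2* was at 0.501 and *Irx4* at 1.25. Set against the 6-month control, the young csPIMT-/- library still had 5 of the 11 atrial markers over 2-fold higher.

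Several fat markers had 10 reads or fewer in the young control. *Adipoq*, the adipocyte hormone adiponectin, had 6 and 1484 reads in the young pair and 515 and 286 in the older one. *Plin1*, which coats the lipid droplets of adipocytes, had 4 and 1286 when young and 388 and 131 when old. *Ucp1*, the uncoupling protein of brown fat, had 10 and 1432 when young and 106 and 12 when old. The young csPIMT-/- library held the most reads of all 3 genes. Of 12 adipocyte markers, 11 were higher in the young csPIMT-/- library, all but *Fabp4*, which endothelial cells of the heart also make and which had a ratio of 0.307 (0.294 to 0.320). The median ratio of the 12 was 83.0, or 39.9 with the genes at 0 control reads set at their bound, and their summed reads were 14630 and 23809 in the young pair, 11899 of the control's being *Fabp4*. Of 9 brown fat markers compared, 7 were higher and 0 lower, with summed reads of 2582 and 4392 at 2 months and 1601 and 2912 at 6 months. Most of the young control's were of *Cidea*, with 2183 and 2077 reads, and the adipocyte gene *Lipe* had 2103 and 3414. Among the 10 brown fat markers in the files, *Otop1* and *Zic1* were at 0 in the young control. Among all genes compared 16.4% were higher. Genes such as *Adipoq*, *Plin1* and *Otop1* passed the limit of 10 reads only through the csPIMT-/- library, so they could only be called higher.

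Most genes of the airway likewise had their highest reads in the young csPIMT-/- library. *Bpifa1*, a secreted protein of the airway lining, had 0 reads in the young control and 794 in the young csPIMT-/- library, which was at least 370-fold higher against a floor of 3 reads. The older libraries held 1 and 8 reads of it. *Scgb1a1*, the secretoglobin of club cells, had 0 and 113 reads when young and 7 and 1 when old. Of 13 lung markers compared, 11 were higher and 2, *Ager* and *Rtkn2* of alveolar type 1 cells, were lower. Their summed reads were 189 and 1776 at 2 months and 306 and 499 at 6 months. Among all genes compared 16.4% were higher and 23.0% lower. Below 100 mean scaled reads, where 11 of the 13 lay, 29.7% of all genes were higher. Genes such as *Bpifa1*, *Scgb1a1* and *Sftpc* passed the limit of 10 reads only through the csPIMT-/- library, so they could only be called higher. Of 20 lung markers in the files, 8 were at 0 in the young control and 0 were at 0 in the young csPIMT-/- library. *Sftpc*, the surfactant protein of alveolar type 2 cells, had 21 reads in the csPIMT-/- library.

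Mesothelial genes, which mark the surface lining of heart and pericardium, were higher in the same library. Of 9 markers, 8 were over 2-fold higher and 1, *Wt1*, was lower, with a ratio of 0.285 (0.224 to 0.359). Among all genes compared 16.4% were higher and 23.0% lower. The higher markers included the keratins *Krt7*, *Krt8*, *Krt18* and *Krt19*. *Upk3b*, a marker of that lining, had 163 and 1088 reads when young and 183 and 136 when old. The Y-linked genes went the other way. *Uty* had 2605 reads in the young control and 71 in the young csPIMT-/- library, with 341 and 164 at 6 months. *Xist*, the RNA that silences one X chromosome in females, had 930 and 5166 reads when young and 29152 and 12357 when old. The 2 libraries of the young pair were thus unequal in male and female RNA although both pools are labelled as mixed, and all 5 compared genes of the Y chromosome were lower.

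**Figure D1:**
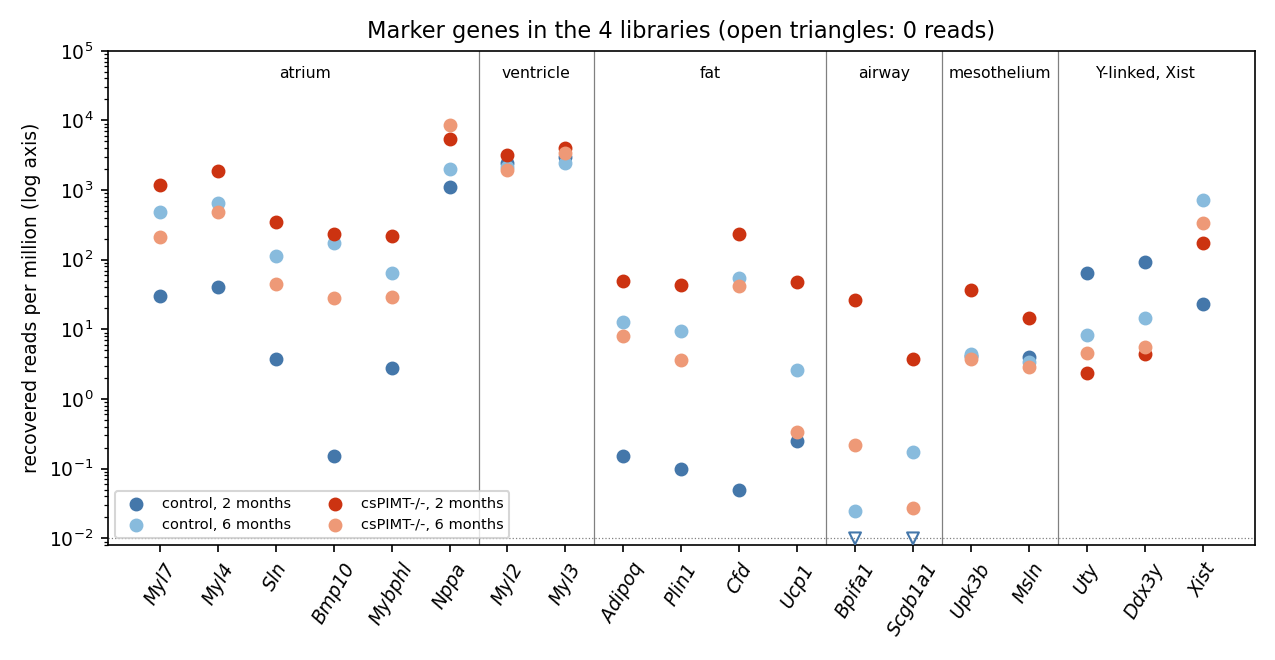
Recovered reads scaled to library size (log axis) of 19 marker genes in the 4 libraries, grouped by tissue. Each point is 1 library of 5 pooled hearts, and an open triangle stands for 0 reads. The young control (dark blue) lies lowest for the atrial genes, for *Adipoq*, *Plin1* and *Cfd*, and for *Bpifa1* and *Scgb1a1*, where it has 0 reads, and highest for *Uty* and *Ddx3y*. *Myl2* and *Myl3* lie close together in all 4 libraries.

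Of the 15152 genes, 3492 were over 2-fold lower in young csPIMT-/- hearts (23.0%) and 2487 over 2-fold higher (16.4%). The remaining 9173 stayed within 2-fold, and the median ratio was 0.980. At 6 months 25.7% of 15218 genes were lower and 16.0% higher. Of the 3399 young lower genes that could be compared at 6 months, 2457 were lower there too, which was 72.3%. Of the 2337 young higher genes, 1053 were higher at 6 months, or 45.1%. The lower genes of young hearts were thus found again at 6 months more often than the higher ones, a difference for which no test was made.

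Lower genes became rarer as the level rose. Below 100 mean scaled reads 27.2% of genes were lower, from 100 to 1000 reads 25.4%, from 1000 to 10000 reads 19.6% and above 10000 reads 7.89%. The higher genes made up 29.7%, 14.0%, 11.6% and 13.2% of the same 4 classes. In the most abundant class, 65 of 494 genes were higher and 39 lower, the reverse of the order among all genes. The same was seen when levels were compared per length: in the highest of 5 equal classes of reads per kilobase 17.3% of genes were higher and 8.91% lower.

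**Figure D2:**
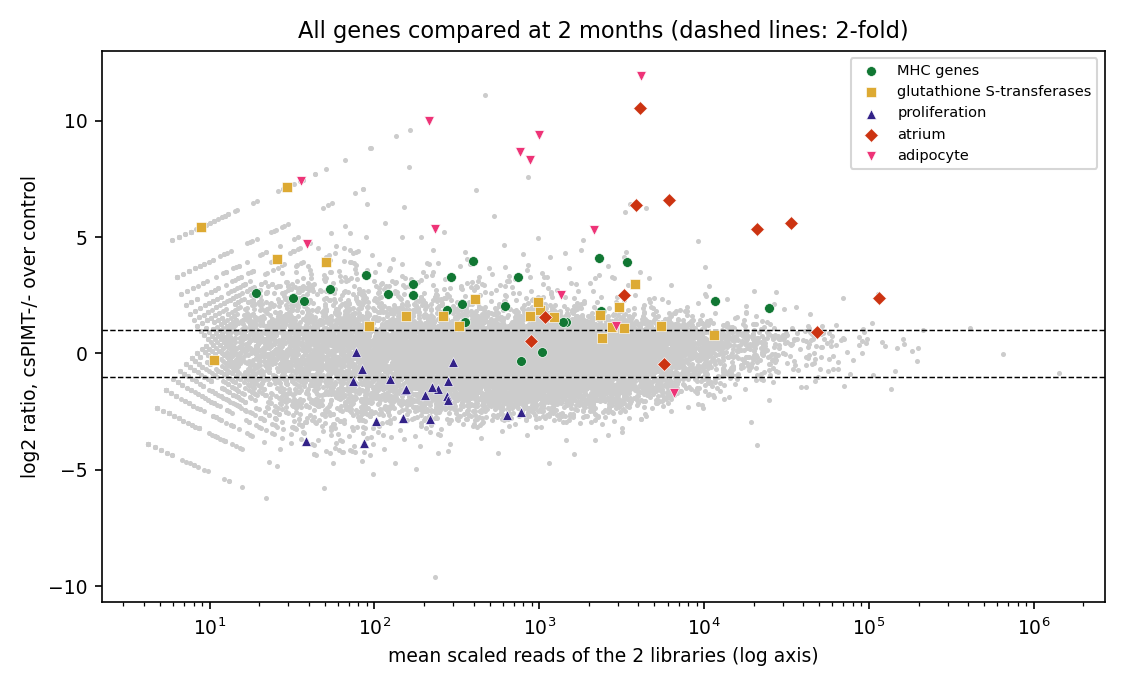
The log2 ratio of csPIMT-/- over control against the mean scaled reads of the 2 libraries (log axis) for all 15152 genes compared, with dashed lines at 2-fold. Each point is a gene, and 5 lists are coloured. Atrial and adipocyte genes lie above the cloud up to high levels, most MHC genes and glutathione S-transferases lie above the upper line, and proliferation genes lie near or under the lower line at low levels. Genes with 0 reads on 1 side are drawn with a pseudocount of 0.5 reads, which sets their height.

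Base composition moved with the ratio across genes. Among genes whose longest transcript had a GC content of at most 40%, 72.6% were lower and 2.77% higher, with a median ratio of 0.327. Among those above 60% GC, 2.84% were lower and 33.7% higher, with a median ratio of 1.66. The Spearman correlation of the log2 ratio with GC content was 0.58 across 14976 genes at 2 months and 0.61 at 6 months, and that of the 6-month over the 2-month control was -0.27. These are relations across genes, which share their libraries and are not replicates. Length went the other way: in the shortest of 5 equal classes of transcripts 13.5% of genes were lower and 28.6% higher, and in the longest 34.8% were lower and 7.05% higher. On the X chromosome, whose compared genes had a median GC content of 45.5%, 207 of 498 genes were lower. After the GC trend was subtracted, 1722 genes were lower and 2233 higher, and 39.2% of the lower and 60.5% of the higher genes were called again. The median ratio after subtraction of the trend is therefore given too, beside some lists and for further ones at the end.

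**Figure D3:**
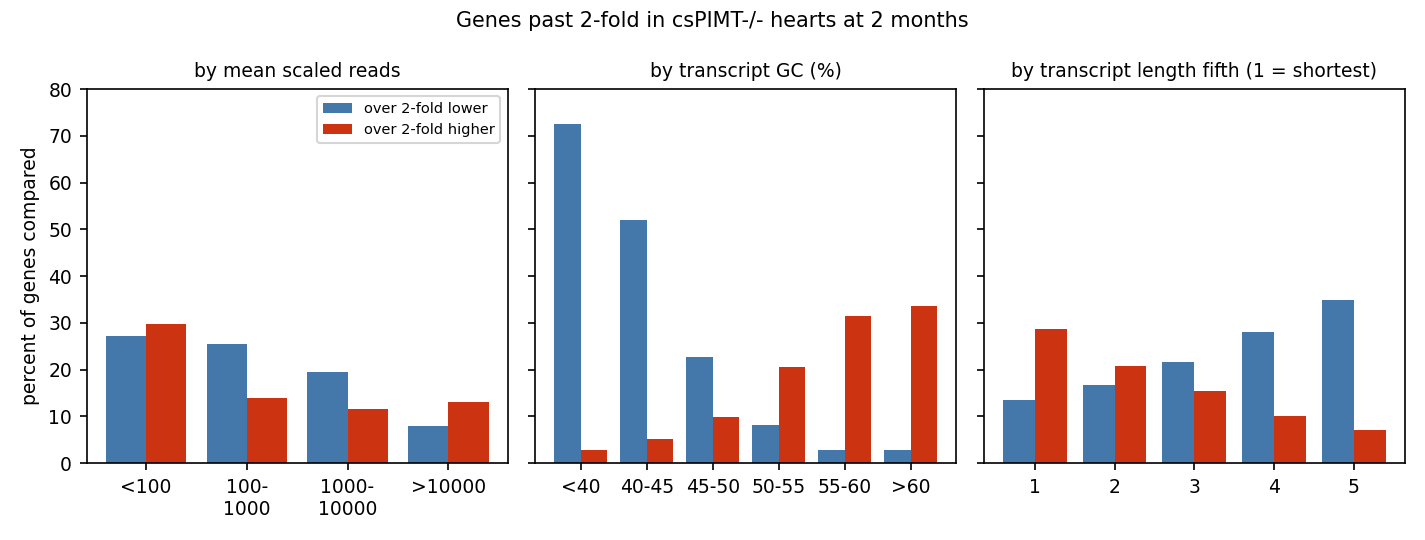
Percent of the genes compared at 2 months that were over 2-fold lower (blue) or higher (red), by mean scaled reads, by GC content of the longest transcript and by 5 equal classes of transcript length. Lower genes go from 72.6% at the lowest GC content to 2.84% at the highest, and from 27.2% in the lowest class of reads to 7.89% in the highest.

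The genes with the lowest and highest ratios differed in kind between levels. Among genes of 100 to 1000 mean scaled reads the lowest were *Myh3*, the embryonic myosin, *Kdm5d*, *Nr4a3* and *Nrk*. *Myh3* had 550 reads in the young control and 0 in the young csPIMT-/- library, but 106 and 442 at 6 months. *Kdm5d* is Y-linked. Among the 4 highest of that class were *Bpifa1* and the adipocyte genes *Retn* and *Cidec*. *Cidec*, a lipid droplet protein, had 3 and 1686 reads, a ratio of 785 (268 to 3810).

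From 1000 to 10000 reads the lowest were the Y-linked *Uty* and *Ddx3y*, the water channel *Aqp4* and the elastic fibre protein *Fbn2*. *Aqp4* had 3194 and 172 reads when young and 1576 and 25 when old, ratios of 0.0752 and 0.0183. *Fbn2*, a fibrillin of growing tissue, had 4800 and 261 reads when young and 849 and 1560 when old. *Aqp4* was thus lower at both ages, and *Fbn2* lower when young and higher when old. The highest were *Cfd*, *Bmp10*, *Sln* and *Bdh1*. *Cfd*, the adipocyte protease adipsin, had 2 and 6964 reads, a ratio of 4863 (1346 to 40166), and 2223 and 1529 at 6 months.

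Above 10000 reads the lowest was *Tfrc*, the receptor that takes up transferrin-bound iron. The young control held 46324 reads of it and the young csPIMT-/- library 2151, a ratio of 0.0649 (0.0621 to 0.0677). At 6 months the reads were 22839 and 894 and the ratio 0.0451. After subtraction of the GC trend the young ratio was 0.174. *Tfrc* was thus among the most abundant transcripts of control hearts and lower in csPIMT-/- hearts at both ages. The others were *Pdk4*, a kinase that shuts off pyruvate dehydrogenase, with a ratio of 0.129 (0.125 to 0.134), the cyclin *Ccng1* with 0.248 and the RNA-binding protein *Qk* with 0.255. *Pdk4* had 40484 and 3745 reads when young but 13483 and 11667 when old, a ratio of 0.997 at 6 months. The ratios of *Ccng1* and *Qk* at 6 months were 0.190 and 0.437. After subtraction of the GC trend *Pdk4* was at 0.213 when young, whereas *Ccng1* and *Qk* were within 2-fold, at 0.611 and 0.608. The highest were *Myl4*, *Myl7*, *C3* and *Gpx3*. *Gpx3*, a secreted glutathione peroxidase, had 2976 and 15900 reads when young and 8879 and 38403 when old, ratios of 7.46 and 4.98.

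*Tfrc* was the reason to look at 13 genes of iron handling, a list made after its value was seen. *Ireb2*, an iron regulatory protein that binds the transferrin receptor and ferritin mRNAs, had 3293 and 352 reads, a ratio of 0.149 (0.133 to 0.167). The ferritin chains, which store iron, were on the other side, with 14739 and 27573 reads of *Fth1* (ratio 2.61, 2.56 to 2.67) and 7009 and 13473 reads of *Ftl1* (2.68, 2.61 to 2.76). *Trf*, transferrin itself, and *Hfe*, which binds its receptor, had ratios of 3.56 (3.42 to 3.70) and 3.36 (3.10 to 3.64). The second transferrin receptor, *Tfr2*, had 25 and 47 reads, a ratio of 2.63 (1.58 to 4.45). In all, 2 of the 13 genes were lower and 6 higher, beside 23.0% and 16.4% of all genes. At 6 months *Ireb2* had a ratio of 0.253, *Fth1* 1.57 and *Ftl1* 2.25. The iron exporter *Slc40a1* (1.20) and the importer *Slc11a2* (1.25) stayed within 2-fold when young.

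*Bdh1*, the mitochondrial enzyme that turns β-hydroxybutyrate into acetoacetate, had 96 reads in the young control and 5910 in the young csPIMT-/- library. The ratio was 86.0 (70.3 to 106). The older libraries held 4359 and 9813 reads, so it was the young control that stood apart from the other 3. Among the other ketone and pyruvate genes, listed after these values were seen, *Oxct1*, which uses ketone bodies, had 28141 and 15394 reads and a ratio of 0.764. The 8 genes of that list had a median ratio of 0.921, with 1 lower and 2 higher, beside 23.0% and 16.4% of all genes.

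**Figure D4:**
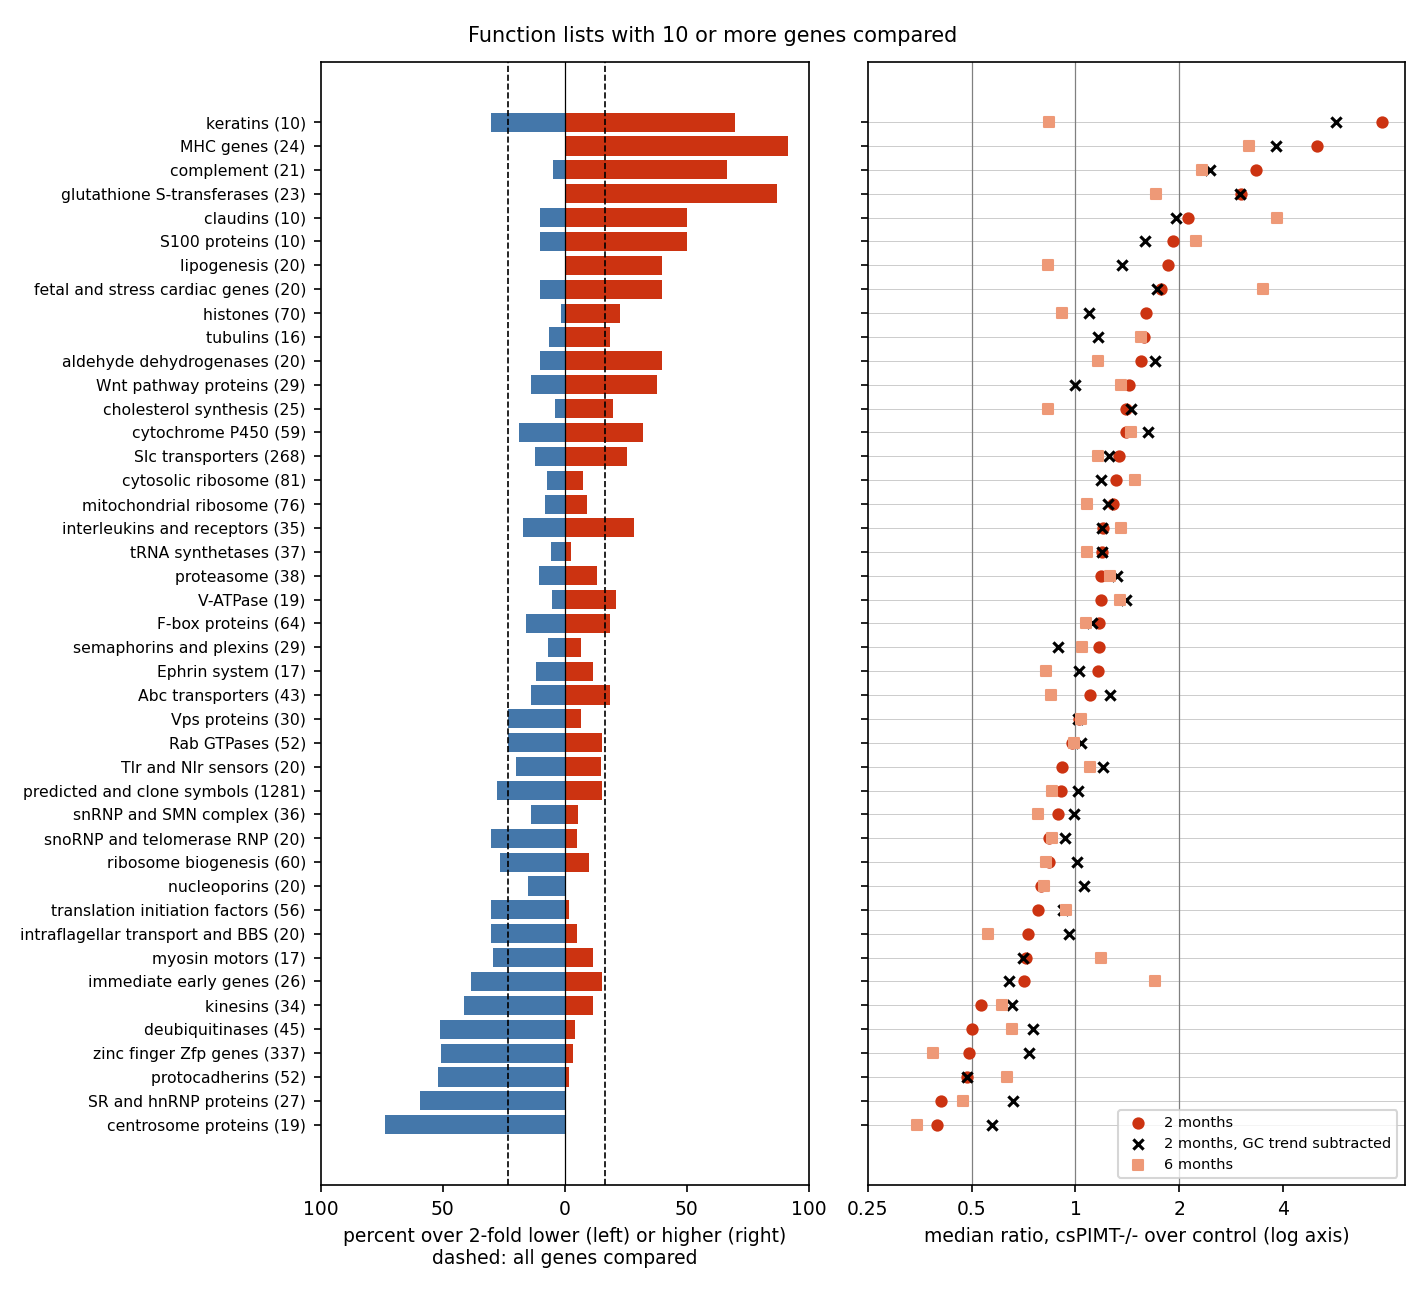
Function lists with 10 or more genes compared at 2 months, ordered by their median ratio. On the left, bars give the percent of each list over 2-fold lower (blue) or higher (red), and dashed lines give the same over all genes (23.0% and 16.4%). On the right, points give the median ratio at 2 months, the same after subtraction of the GC trend, and at 6 months (log axis). By the median at 2 months keratins (7.72), MHC genes (5.00), complement (3.33) and glutathione S-transferases (3.03) stand at the top, and centrosome (0.398), SR and hnRNP (0.407), protocadherin (0.485) and Zfp genes (0.492) at the bottom.

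Genes of the major histocompatibility complex (MHC), which present peptides to T cells, were the function list with the highest share of higher genes. Of 24 compared, 22 were over 2-fold higher in young csPIMT-/- hearts and 0 lower, beside 16.4% of all genes that were higher. Their median ratio was 5.00, and 3.80 after the GC trend was subtracted. At 6 months 19 of 24 were higher, with a median of 3.19, and all 19 were among the 22. The class I genes *H2-D1*, with 11944 and 33127 reads, and *H2-K1*, with 4828 and 16339, had ratios of 3.87 (3.79 to 3.96) and 4.73 (4.58 to 4.88). Of the class II genes, which antigen-presenting cells make, *H2-Ab1* had 297 and 3682 reads, a ratio of 17.3 (15.4 to 19.6), and *H2-Aa* 491 and 5382 reads, a ratio of 15.3 (14.0 to 16.8). Their older ratios were 4.83 and 4.24. The class I gene *H2-Q6* lay in the same range, with 56 and 629 reads and a ratio of 15.7 (11.9 to 21.01). The 2 genes that stayed within 2-fold were *H2-T24* and *H2-Ke2*. Of the list, which was made by symbol, *H2-Ke2* encodes a prefoldin subunit and *H2-Ke6* a steroid dehydrogenase, and neither is an MHC molecule. The higher share held at each level, with 5 of 5 genes below 100 mean scaled reads, 10 of 11 from 100 to 1000, 5 of 6 from 1000 to 10000 and 2 of 2 above.

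The immunoproteasome subunits *Psmb8* and *Psmb9*, which cut peptides for MHC class I, had ratios of 4.06 (3.71 to 4.44) and 4.75 (4.12 to 5.48), the highest of the 38 proteasome genes. The other proteasome genes mostly stayed within 2-fold, with 5 of 38 higher and 4 lower. Class I genes of the MHC are near-identical copies of one another, and the authors' counting could have dropped or split reads between them. Most macrophage markers moved with this group. *Csf1r*, the receptor that macrophages need for survival, had 3886 and 6981 reads, and *Lyz2*, their lysozyme, had 2537 and 8421. Of 11 macrophage markers 7 were higher and 0 lower, with a median ratio of 2.51, beside 16.4% of all genes that were higher. Their summed reads were 23948 and 43169 at 2 months and 48626 and 70698 at 6 months. The exceptions were *Emr1* (1.82), *F13a1* (1.67), *Mrc1* (0.913) and *Cx3cr1* (0.845). Set against the 6-month control, the median log2 ratio of the 11 was 0.27 instead of 1.33. The part of macrophage number in the MHC values was not tested.

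The products of complement genes tag cells and debris for clearance. Of 21 compared, 14 were higher and 1 lower, beside 16.4% and 23.0% of all genes. The median ratio of the 21 was 3.33, and 2.46 after the GC trend was subtracted. *C4b* had 414 and 5212 reads when young, a ratio of 17.6 (15.9 to 19.5), and 2317 and 9571 when old. *C3*, the central component, had 1705 and 16018 reads, a ratio of 13.1 (12.5 to 13.8), and 6569 and 25313 when old. Both genes were lowest in the young control and higher in csPIMT-/- than in control hearts at both ages. *C1qa*, *C1qb* and *C1qc*, which macrophages make, had ratios between 3.27 and 3.53 and are also in the macrophage list. *Cfd* is in the adipocyte list. The inhibitor *Cd55* was the 1 lower gene, with 973 and 292 reads. At 6 months 13 of 22 complement genes were higher, 10 of them also at 2 months.

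Glutathione S-transferases couple glutathione to reactive compounds. Of 23 compared, 20 were higher and none lower, beside 16.4% and 23.0% of all genes. The median ratio of the 23 was 3.03, and 3.01 after the GC trend was subtracted. *Gstm2* had 1019 and 5745 reads, a ratio of 7.87 (7.37 to 8.43), and *Gstm1* had 1433 and 4130 reads, a ratio of 4.03 (3.79 to 4.28). *Gsta1* had 0 and 50 reads, at least 23.3-fold higher. The 3 genes within 2-fold were *Mgst3*, *Gstz1* and *Gstm3*, of which *Mgst3* was the most abundant of the family, with 10051 and 12368 reads and a ratio of 1.72 (1.67 to 1.76). At 6 months 6 of 22 were higher, with a median of 1.72, and 5 of these were also higher at 2 months. The older control had more reads than the young one for most of them, for example 3195 of *Gstm2*. Members of the Gstm and Gsta groups are close copies, so reads could have been split between them.

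Other enzymes of detoxification were mixed. Of 20 aldehyde dehydrogenases 8 were higher and 2 lower, beside 16.4% and 23.0% of all genes, and their median ratio was 1.55. *Aldh2*, which clears acetaldehyde, had 5469 and 12465 reads and a ratio of 3.18 (3.08 to 3.29). *Aldh3a1* had 13 and 313 reads, a ratio of 33.6 (19.4 to 63.9), and *Aldh1l2*, the mitochondrial folate enzyme, had 1135 and 166, a ratio of 0.204 (0.173 to 0.241). The family thus held genes far to each side. Of 59 cytochrome P450 genes, 19 were higher (32.2%) and 11 lower (18.6%), beside 16.4% and 23.0% of all genes. Below 100 mean scaled reads lay 36 of them, with 11 higher and 10 lower. At that level 29.7% of all genes were higher and 27.2% lower, so those counts were close to all genes. Among solute carriers of the Slc families 68 of 268 were higher, 25.4% beside 16.4% of all genes, and 33 were lower. The liver transporter *Slc22a7* had 0 and 162 reads, at least 75.4-fold higher, and 21 and 38 at 6 months.

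Lipogenesis is the making of fatty acids and triglycerides. Of its 20 genes 8 were higher and none lower, beside 16.4% and 23.0% of all genes. *Scd1*, the desaturase, had 744 and 15001 reads when young, a ratio of 28.2 (26.2 to 30.4), and 7246 and 2630 when old, a ratio of 0.418. *Fasn*, fatty acid synthase, had 6492 and 29494 when young and 11442 and 6943 when old, ratios of 6.35 (6.18 to 6.52) and 0.699. *Thrsp* had 519 and 3070 when young and 1670 and 1561 when old. At 6 months 0 of 20 were higher and 4 lower. *Scd1*, *Fasn* and *Thrsp* are abundant in adipocytes. Like *Adipoq*, they had the fewest reads in the young control and the most in the young csPIMT-/- library. *Elovl5* and *Me1* did not. *Elovl5* had 3247 and 1334 reads when young and 2664 and 1182 when old. *Me1* had 2697 and 1268 when young and 3306 and 1425 when old. Of the 20 genes, 12 stayed within 2-fold when young and 5 had ratios below 1. The part of fat tissue in the lipogenesis values was not tested. Of 10 keratins, 7 were higher and 3 lower, with *Krt18* at 194 and 1348 reads and *Krt8* at 43 and 352. Both pair in simple epithelia and are in the mesothelial list. At 6 months *Krt18* had 174 and 4813 reads and *Krt8* 33 and 300, when the mesothelial *Upk3b* had 183 and 136.

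Among the lists that were lower, proliferation genes had 17 of 20 members over 2-fold lower and 0 higher, beside 23.0% of all genes that were lower. Their median ratio was 0.311, and 0.371 after the GC trend was subtracted. *Top2a*, the topoisomerase of dividing cells, had 1557 and 197 reads when young and 1513 and 126 when old, ratios of 0.177 (0.152 to 0.205) and 0.0960. *Mki67*, the Ki-67 antigen, had 1292 and 147 when young and 2187 and 236 when old, ratios of 0.159 (0.133 to 0.189) and 0.124. Both controls thus held at least 1292 reads of each gene, and both csPIMT-/- libraries at most 236. At 6 months 16 of 20 were lower, 15 of them the same genes. The exceptions when young were *Plk1* (1.05), *Cdc20* (0.782) and *Birc5* (0.630). The summed reads of the 20 genes were 8262 and 1659 at 2 months and 11473 and 1724 at 6 months.

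The promoters of this list are shown because its members moved together and because their known cell-cycle elements can be read in them. Of the 16 members with a promoter in the RefSeq table (GRCm38.p6, 250 bases before to 50 bases after the start), 14 held the letters CCAAT, the CCAAT box, on either strand, and 10 held TTTGAA, a form of the cell-cycle homology region. Of all 10588 compared genes with a promoter there, 38.2% held CCAAT, 12.0% held TTTGAA and 4.94% held both, while 10 of the 16 held both. In the 3 promoters below, the most abundant lower members with both, capitals mark CCAAT or TTTGAA or their reverse complements, and no matches overlap. They are *Top2a* at chr11:99024140-99024439, *Mki67* at chr7:135716330-135716629 and *Cenpf* at chr1:189688037-189688336, all on the minus strand and written 5′ to 3′ along the gene.
Top2a: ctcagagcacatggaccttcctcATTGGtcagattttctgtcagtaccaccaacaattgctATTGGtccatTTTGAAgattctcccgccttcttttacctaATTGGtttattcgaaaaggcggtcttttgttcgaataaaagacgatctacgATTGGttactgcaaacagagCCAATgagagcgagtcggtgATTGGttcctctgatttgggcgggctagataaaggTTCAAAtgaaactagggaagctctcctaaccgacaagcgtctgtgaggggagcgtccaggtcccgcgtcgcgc
Mki67: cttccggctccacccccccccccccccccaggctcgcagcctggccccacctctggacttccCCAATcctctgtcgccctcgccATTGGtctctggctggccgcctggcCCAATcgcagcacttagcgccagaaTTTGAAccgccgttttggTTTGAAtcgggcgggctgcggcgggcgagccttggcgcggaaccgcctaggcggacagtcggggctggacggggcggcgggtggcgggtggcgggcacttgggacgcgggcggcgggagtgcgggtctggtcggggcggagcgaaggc
Cenpf: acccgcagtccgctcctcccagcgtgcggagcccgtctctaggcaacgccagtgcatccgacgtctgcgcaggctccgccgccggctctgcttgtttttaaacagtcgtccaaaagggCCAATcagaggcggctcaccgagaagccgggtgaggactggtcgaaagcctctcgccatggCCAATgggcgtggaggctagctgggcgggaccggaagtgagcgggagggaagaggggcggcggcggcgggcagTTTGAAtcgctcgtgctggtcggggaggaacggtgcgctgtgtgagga
*Top2a* held 6 matches of CCAAT and 2 of TTTGAA, *Mki67* 3 and 2, and *Cenpf* 2 and 1. A match is a description of letters in this window and says nothing of binding. The letters of known elements were also searched on both strands for 2 lists that were higher. TGACNNNGC, the core of the antioxidant response element, was in 3 of 21 glutathione S-transferase promoters and in 14.7% of all, and the core of the interferon-stimulated response element was in 1 of 16 MHC promoters and in 3.11% of all.

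**Figure D5:**
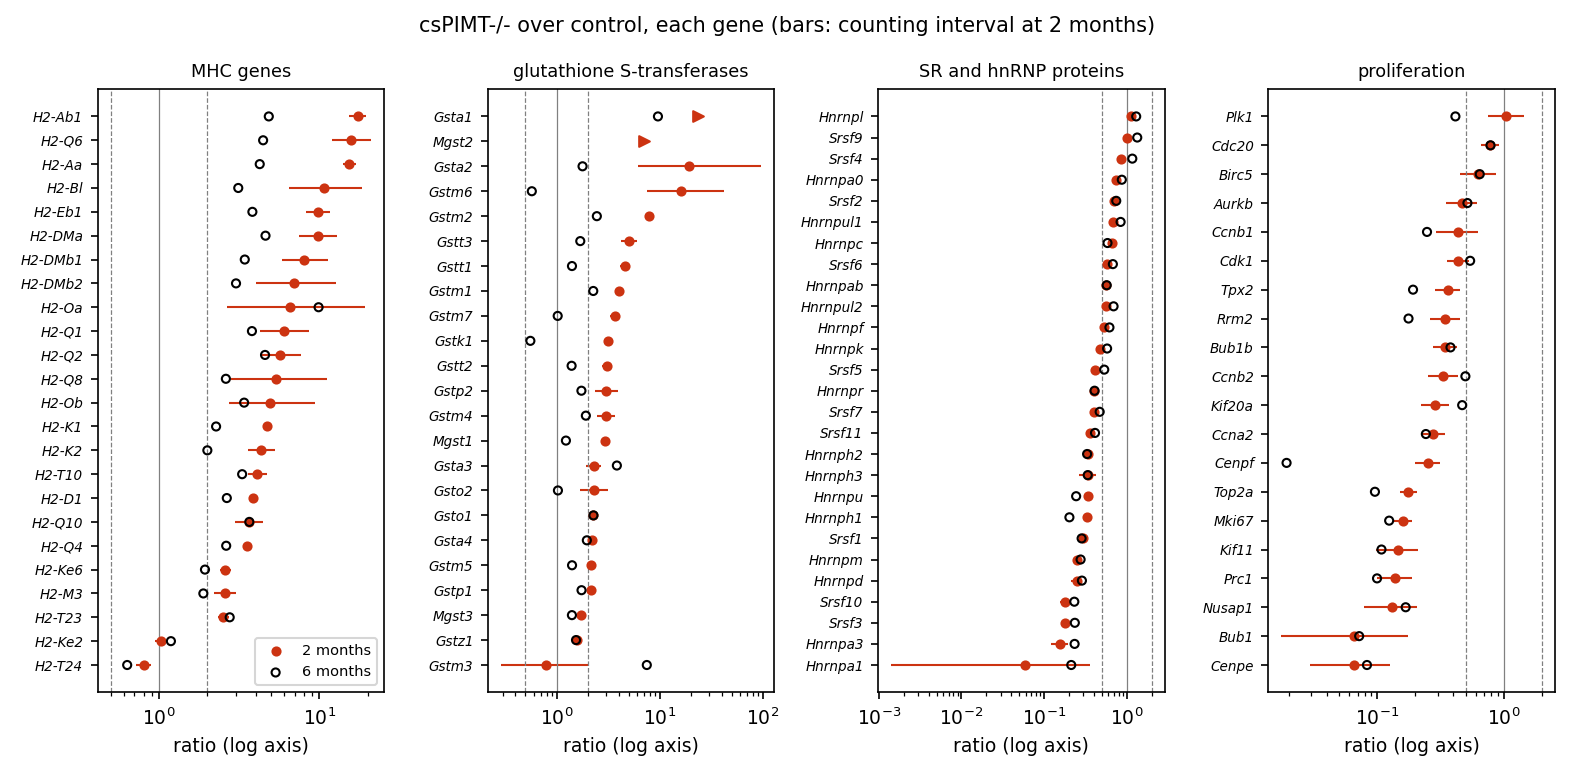
Ratio of csPIMT-/- over control (log axes) for each compared gene of 4 lists. Red points are the ratio at 2 months with its 95% counting interval, red triangles the ratio against the floor of 3 reads for genes with 0 control reads, and open circles the ratio at 6 months. Dashed lines mark 2-fold. In the MHC list all but *H2-T24* and *H2-Ke2* lie above the upper line at 2 months, and in the proliferation list all but *Plk1*, *Cdc20* and *Birc5* lie below the lower line.

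The SR and hnRNP proteins, which bind pre-mRNA and guide splicing, were lower in 16 of 27 cases and higher in none. Their median ratio was 0.407, but 0.657 after the GC trend was subtracted, when 5 were lower. *Srsf3* had 3699 and 472 reads, a ratio of 0.178 (0.162 to 0.196), and *Hnrnpa3* had 786 and 87, a ratio of 0.155 (0.122 to 0.193). *Hnrnpl* and *Srsf9* stayed near 1, with ratios of 1.12 (1.08 to 1.16) and 1.01 (0.917 to 1.11). At 6 months 14 of 27 were lower, all of them among the 16. The transcripts of this list are poor in GC, with a median of 42.9%. Proteins of the small nuclear RNPs and the SMN complex, which assembles them and whose RNAs carry the cap that PIMT makes, had 5 of 36 lower and 2 higher, a median of 0.891 and 0.988 after the trend was subtracted. The 20 genes of the small nucleolar and telomerase RNPs had 6 lower and 1 higher, with a median of 0.836. Among all genes 23.0% were lower and the median was 0.980.

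Centrosome proteins of the Cep family were lower in 14 of 19 cases and higher in none, with a median ratio of 0.398 and 0.571 after the trend was subtracted. *Cep290*, of the base of the cilium, had 192 and 22 reads, and *Cep350*, the most abundant, had 4563 and 1113, a ratio of 0.341 (0.319 to 0.364). At 6 months 14 of 19 were lower, 12 of them the same. Kinesins, motors that walk on microtubules, had 14 of 34 lower and 4 higher, beside 23.0% and 16.4% of all genes. The mitotic kinesins *Kif11* and *Kif15* had 307 and 32 and 188 and 14 reads, whereas the nerve kinesins *Kif1a* and *Kif21b* had ratios of 1.99 (1.72 to 2.30) and 2.04 (1.66 to 2.51). The intraflagellar transport and BBS genes, which build cilia, had 6 of 20 lower, beside 23.0% of all genes, and 1 after the trend was subtracted, with *Ift81* at 3670 and 482 reads.

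Most Zfp genes encode zinc finger proteins that bind DNA. Of 337 compared, 171 were lower (50.7%) and 12 higher, beside 23.0% and 16.4% of all genes. The median ratio of the 337 was 0.492, and 0.732 after the trend was subtracted, when 76 were lower. Lower genes made up 51 of 77 below 100 mean scaled reads, 100 of 206 from 100 to 1000 and 20 of 53 from 1000 to 10000. *Zfp873* had 145 and 5 reads and *Zfp97* 160 and 6, and many of these genes are close copies of one another. The deubiquitinases of the Usp family had 23 of 45 lower and 2 higher, beside the same shares of all genes. *Usp1* had 907 and 120 reads. *Usp18*, which trims the interferon-induced modifier ISG15, was on the other side with 185 and 588 reads, a ratio of 4.44 (3.76 to 5.27). The Usp median went from 0.50 to 0.753 when the trend was subtracted, and 8 genes were then lower.

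The protocadherins are cell adhesion molecules of which most lie in clusters of tandem genes. Of 52 compared, 27 were lower and 1 higher, beside 23.0% and 16.4% of all genes. The median ratio of the 52 was 0.485 both before and after the GC trend was subtracted, and 28 were then lower. *Pcdh17* had 2058 and 213 reads, a ratio of 0.145 (0.125 to 0.167), and *Pcdh7*, the most abundant, had 19097 and 6826, a ratio of 0.499 (0.486 to 0.513). *Pcdhgc3*, of the same cluster as the Pcdhga and Pcdhgb genes, had a ratio of 1.55 (1.48 to 1.63). The genes of that cluster share their last exons, so reads there could not be given to 1 of them. At 6 months 23 of 53 were lower, 19 of them also at 2 months.

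Immediate early genes, which respond to stimuli within minutes, differed between the ages. When young, 10 of 26 were lower and 4 higher, and when old, 3 were lower and 11 higher, with medians of 0.708 and 1.70. Among all genes 23.0% were lower and 16.4% higher when young, and 25.7% and 16.0% when old. *Nr4a1*, an orphan nuclear receptor, had 5895 and 571 reads when young and 676 and 2592 when old, ratios of 0.135 (0.124 to 0.147) and 4.42. *Nr4a3* had 549 and 20 when young and 20 and 135 when old. *Btg2* had 11397 and 2373 when young and 3422 and 5921 when old. For all 3 the young control held the most reads of the 4 libraries. *Junb* and *Ier3* were higher at 2 months, with ratios of 3.10 (2.93 to 3.28) and 3.06 (2.82 to 3.33). *Rgs2* was lower at both ages, with 4288 and 402 reads when young and 2420 and 258 when old.

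A list of 14 genes of growth and of fetal life, several imprinted, was made after values of some were seen. *Igf2*, the fetal growth factor, had 6242 and 790 reads when young and 2571 and 1113 when old, ratios of 0.177 (0.164 to 0.190) and 0.499. *H19*, its neighbour, had 8947 and 2273 when young and 4599 and 3913 when old. *Mest* had 2735 and 277 when young and 1307 and 232 when old. *Igf2bp3*, which binds *Igf2* mRNA, had 116 reads in the control and 1 in the csPIMT-/- library, a ratio of 0.0120 (0.000302 to 0.0684). In all, 10 of the 14 were lower, beside 23.0% of all genes, and 1, *Igf2bp1* with 9 and 13 reads, was higher. The median ratio was 0.338, and 0.354 after the trend was subtracted. The fetal troponin *Tnni1* had 895 and 162 reads when young and 202 and 545 when old.

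The erythroid marker *Slc4a1*, the anion exchanger of the red blood cell membrane, had 655 and 67 reads when young and 277 and 975 when old. *Alas2*, the most abundant erythroid marker in the files, had 4428 and 1876 reads when young, a ratio of 0.592, and 3246 and 11807 when old. The 4 globin genes in the files were at 0 reads in all 4 libraries. As *Alas2* and *Slc4a1* had reads, these zeros cannot be read as a lack of globin RNA, and why they arose was not tested. Of 11 skeletal muscle markers 4 were lower and 2 higher, beside 23.0% and 16.4% of all genes. The most abundant, *Mybpc2*, a myosin-binding protein of fast muscle, had 1861 and 3266 reads, a ratio of 2.45 (2.31 to 2.60). Among the fast myosins *Myh4* had 235 and 21 reads when young and 36 and 122 when old, and *Myh1* 191 and 5 when young and 48 and 121 when old. These myosins are similar in sequence to each other and to the far more abundant *Myh6*, so their few reads are uncertain.

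The contractile genes of cardiomyocytes differed far less. Of 13 cardiomyocyte markers 1, *Pln*, the brake on the calcium pump, was lower and 0 were higher. *Pln* had 121349 and 33108 reads, a ratio of 0.381 (0.376 to 0.386), which became 1.14 after the GC trend was subtracted. *Myh6*, the adult myosin, had 776661 and 541467 reads, a ratio of 0.974 (0.970 to 0.977). *Ttn*, the giant titin, had 2159745 and 867311 reads, a ratio of 0.561 (0.559 to 0.562). Genes of fetal type and of cardiac stress were higher in 8 of 20 cases and lower in 2 when young, and higher in 14 of 20 when old. Among all genes 16.4% were higher and 23.0% lower when young, and 16.0% were higher when old. *Acta1*, skeletal actin, had 26376 and 99071 reads when young and 27602 and 90461 when old, ratios of 5.25 (5.18 to 5.32) and 3.78. *Myh7*, the fetal myosin of mouse ventricle, had 8325 and 24412 when young and 7492 and 298863 when old, ratios of 4.10 (3.99 to 4.20) and 46.0. *Gdf15*, a stress hormone, had 531 and 1490 when young and 371 and 7650 when old. The scaled ratio of the 6-month over the 2-month control was 1.02 for *Acta1* and 0.874 for *Myh7*. Among the atrial and fat markers it was 15.8 for *Myl7* and 83.4 for *Adipoq*, but 1.15 for *Kcnj5* and 0.922 for *Fabp4*. *Nppa*, which atria make in quantity at all ages, had 44126 and 163174 reads when young and 80342 and 307872 when old.

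Fibroblast and endothelial genes showed no common direction. Of 10 fibroblast markers 2 were lower, *Postn* and *Lum*, and both lay above 1 after the GC trend was subtracted. *Gsn*, which severs actin filaments, was higher, with 39160 and 164738 reads and a ratio of 5.88 (5.81 to 5.94). *Col3a1* had 163327 and 62289 reads, a ratio of 0.533 (0.528 to 0.538). Of 10 endothelial markers *Kdr* and *Tek*, receptors for growth factors of vessels, were lower, with ratios of 0.427 and 0.408, and *Vwf*, the clotting factor carrier, was higher, with 3.37 (3.29 to 3.45). Of 8 smooth muscle markers 4 were higher and 0 lower, beside 16.4% and 23.0% of all genes, and 3 had ratios below 1. The higher ones were *Cnn1*, *Tagln*, *Lmod1* and *Myh11*, with ratios of 12.7, 5.06, 2.91 and 2.51. *Cnn1* had 263 and 2387 reads when young and 1294 and 909 when old.

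The machinery of protein synthesis lay closer to 1 than most lists. Of 81 genes of the cytosolic ribosome 6 were lower and 6 higher, with a median ratio of 1.31. Of 76 genes of the mitochondrial ribosome 6 were lower and 7 higher, with a median of 1.28. Of 37 tRNA synthetases 2 were lower and 1 higher, with a median of 1.19. Each of these shares was below that of all genes on both sides. *Rpl29* stood out with 55 and 994 reads when young and 2739 and 131 when old, which made it high in a library of each genotype. It has many processed copies in the genome, so its reads are uncertain. Translation initiation factors had 17 of 56 lower (30.4%) and 1 higher, and after the trend was subtracted 4 were lower. Among the 17 were *Eif3e*, with 4408 and 512 reads, and the Y-linked *Eif2s3y*, with 1837 and 116. Genes of ribosome biogenesis had 16 of 60 lower (26.7%) and 6 higher, and nucleoporins 3 of 20 lower and 0 higher. These shares were near those of all genes, of which 23.0% were lower. Rab GTPases, Vps proteins and F-box proteins were likewise close to all genes, with medians of 0.979, 1.02 and 1.17.

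For the lists not yet given with it, the median ratio after subtraction of the GC trend was as follows. Above 1.5 were keratins at 5.69, macrophage markers at 2.18, fetal and stress genes at 1.73, aldehyde dehydrogenases at 1.70, iron genes at 1.69 and cytochrome P450 genes at 1.62. Lipogenesis went from 1.85 to 1.36, and the solute carriers were at 1.25. Proteasome genes were at 1.32 and mitochondrial ribosome genes at 1.24. The intraflagellar transport list went from 0.727 to 0.960, nucleoporins from 0.796 to 1.06 and ribosome biogenesis from 0.836 to 1.01. Translation initiation factors were at 0.920, the small nucleolar and telomerase RNPs at 0.933 and the ketone list at 1.02. Kinesins were at 0.656 and immediate early genes at 0.640, so both stayed below 1.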

How the data were processed

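Total RNA of 5 pooled hearts per library was extracted with TRIzol, and poly(A)-selected directional libraries were sequenced as single-end reads. According to the study's methods, STAR alignment to mm10, gene counting by htseq-count on a UCSC annotation and DESeq2 normalisation were done by the authors. The deposited values are a signal, gene counts divided by a size factor for each library. Dividing by the smallest value above 0 gave whole reads for 100% of values (largest deviation 4.89e-09), and these reads were analysed. No raw count table was used here. The ratio is csPIMT-/- over control after median-of-ratios scaling of the pair. Genes with at least 10 reads in 1 library were kept, and a pseudocount of 0.5 reads was used only for log2 values. Genes with 0 control reads were set against a floor of 3 reads. GC content and length are those of the longest GENCODE transcript (GRCm38), found for 98.8% of genes, and the GC trend is a lowess curve of span 0.3. With 1 library per genotype and age there is no test between the young libraries. As an added alternative, edgeR's quasi-likelihood test was run on the recovered reads of all 4 libraries with age and genotype as terms and 1 residual degree of freedom. At an adjusted p below 0.05 and without a fold limit, it called 2508 genes lower and 1619 higher of 14935. At an unadjusted p below 0.05 it gave 3576 and 3059.

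The genes named were the 4 lowest and 4 highest of each level class above 100 mean scaled reads, without predicted gene symbols, the 2 lowest and 2 highest members of each function list with at least 100 reads in 1 library, *Tgs1* and the tissue markers. Further members of lists were named after their values were seen. Some genes that these rules select are not reported here, and 1 member of the ketone list was left out of it. The comparison, the lists and the rules were chosen with earlier results of these data known, and the lists of growth, iron and ketone genes after their values were seen. Intervals and floors cover counting error only, and reads without molecular identifiers are not independent molecules. The scripts were tested on simulated data. Python 3.11.15 with numpy 2.4.6, pandas 2.3.3, scipy 1.17.1, statsmodels 0.14.6 and matplotlib 3.10.9, and R 4.3.3 with edgeR 4.0.16, were used. Alternatives were TMM and total-read scaling, other minimum reads, another pseudocount, the 6-month control or both controls in place of the young control, and subtraction of the GC trend. Leaving out the tissue marker genes and setting genes at 0 reads to their bound were added after the data were seen.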

Additional observations from a re-analysis of the deposited data

Results flagged for a closer look

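Several lists and genes went one way at 2 months and the other way at 6 months, and each difference between the ages was not tested, since each library is 1 pool. Values are log2 ratios of csPIMT-/- over control. The median of 11 atrial markers was 2.53 at 2 months and -1.13 at 6 months, that of 12 adipocyte markers 6.37 and -0.63, and that of 9 mesothelial markers 2.62 and -0.22. Among the atrial genes, *Myl7* had 5.33 and -1.14, *Sln* 6.57 and -1.28, and *Bmp10* 10.54 and -2.58. The median of 8 keratins compared at both ages was 2.95 and -0.28. Others had the lower value when young. The 4 erythroid markers had a median of -2.34 at 2 months and 1.41 at 6 months, the nuclear receptor *Nr4a3* had -4.26 and 2.93, and the fibrillin *Fbn2* had -3.72 and 1.08. The embryonic myosin *Myh3* had -9.62 and 2.26, its young value being set by the pseudocount, as the csPIMT-/- library had 0 reads.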

How the results depend on the processing

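No paired analysis was possible because each group has 1 library and no replicate number pairs libraries. The edgeR test held age as a term. With the GC trend subtracted 1722 genes were lower instead of 3492, and 1346 were lower both ways. The count of 2487 higher genes became 1618 with at least 100 reads and 1607 when interval bounds also had to pass 2-fold. The edgeR test, over both ages and without a fold limit, called 1619 genes higher, which is an unlike count. With the 6-month control 5 atrial markers were higher instead of 8, the adipocyte median log2 ratio was 2.02 instead of 6.37, and 88.1% of the lower but 55.2% of the higher genes were called again. With at least 100 reads 3 of 5 brown fat markers and 5 of 5 lung markers were higher, and with no minimum 17 of 20 lung markers. Of 68 lists, the 21 with a median past 2-fold kept its sign under all 7 alternatives run on lists, but nearer 1 the sign changed in 10 lists with the GC trend subtracted, 8 with the 6-month control, 7 with both controls summed, 2 with a pseudocount of 5 and 1 with total reads. Among 388 named genes 1 changed sign with TMM and 4 with total reads, none past 2-fold. With the 6-month control 34 of 386 did, 12 of them past 2-fold, with log2 ratios of 0.44 for *Nr4a3*, -0.56 for *Cd163*, -0.0081 for *Pvalb*, -2.06 for *Xist*, -1.02 for *Rpl29*, 1.73 for *Cyp2c37*, 1.64 for *Cyp2c50*, 0.92 for *Aldh1a2*, 0.12 for *Tnni1*, 0.15 for *Ephb1*, -0.19 for *Nlrc5* and -0.53 for *Igf2bp1*. With both controls summed 17 did, 2 past 2-fold, *Xist* at -1.10 and *Rpl29* at -0.047. With the GC trend subtracted 30 did, 4 past 2-fold, *Pln* at 0.18, *Lum* at 0.090, *Postn* at 0.37 and *Sema3c* at 0.0050. The cause was not tested. Genotype and any difference in dissection, sex or library preparation between the 2 pools cannot be told apart, and depth limits genes of few reads, whose intervals are wide.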
